A study of Mus musculus with 11 samples.

Results

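The 9 genes described here belong to the interleukin 6 (IL-6) family and to type 2 immune signalling: the ligands Il6, Lif and Il11, the receptor chains Il6st, Il6ra, Osmr and Lifr, the alarmin Il33 and the receptor chain Il4ra. They were taken by symbol from a table of 23507 gene rows, and all 9 had reads. The cells came from perigonadal white adipose tissue (pgWAT), the fat depot beside the gonads, and were its stromal vascular fraction, which is what remains once adipocytes are removed. All animals were adult mice carrying Tg(Pdgfrb-eGFP), a transgene in which Pdgfrb sequence drives a green fluorescent protein in mural cells and fibroblast-like cells, on the C57BL6/J background, and none was treated. The groups were 3 male mouse ids (1, 4 and 8, with 1177 cells on 4 plates) and 4 female ids (2, 3, 5 and 6/7, with 2084 cells on 7 plates). Mouse 6/7 is 2 animals under 1 id. Cells were sorted as CD45-negative and then by the reporter, by the endothelial surface protein CD31 and by DPP4, a surface protein of part of the adipose stem cells (ASC), and the gates differed between mice.

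Cytokines of the IL-6 family signal through the shared chain gp130, which Il6st encodes. IL-6 and IL-11 reach gp130 through their own binding chains, encoded by Il6ra and by Il11ra1, whereas leukaemia inhibitory factor (LIF) and oncostatin M pair gp130 with the chains encoded by Lifr or Osmr. The pairs activate JAK kinases and STAT3, and in fat the family is known for links to inflammation, lipolysis and the restraint of adipogenesis. Il33 encodes a nuclear cytokine that is released from damaged cells and read by ST2 (Il1rl1) on type 2 lymphocytes, regulatory T cells and mast cells. Il4ra encodes the chain shared by the receptors for IL-4 and IL-13, which signal through STAT6 and are known for their action on macrophages.

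The 3261 cells had 149931 to 3548334 reads each (median 629323), spike-ins included. No cell name occurred on more than 1 plate (0 names). Clustering without the 9 genes gave 2252 ASC-like, 559 blood endothelial (EC)-like, 137 macrophage-like and 101 mural-like cells, named by fixed markers, beside 22 lymphatic EC-like, 19 epithelial-like and 171 unnamed cells. Macrophage-like cells came from mice 1 and 5 alone, and their Ptprc, which encodes CD45, ran from 169 to 234 CPM (reads of a gene per 1e6 reads in genes) although the gate was CD45-negative. Mural-like sums of at least 10 cells came from mice 1 and 2 alone. These sums differed in make-up. The mural-like class held 41 vascular smooth muscle-like cells, all from males. Smooth muscle markers summed to 10360 CPM in mouse 1 and 262 CPM in mouse 2. EC markers stood at 624 CPM (mouse 1) and 3280 CPM (mouse 2) in these mural-like sums, and 51 of the 60 pericyte-like cells among them had high markers of another class. The same held for 62 of the 137 macrophage-like cells. Mast cell markers summed to 803 to 1839 CPM in the macrophage-like sums, beside 911 to 1338 CPM of macrophage markers, with none of the 4 at 0. In 9 of the macrophage-like cells (8 of mouse 1 and 1 of mouse 5) the mast cell markers exceeded the macrophage markers, and these held 99.7% of the Cpa3 reads of the class. In ASC-like sums the 4 macrophage markers together held 2.23 to 6.13 CPM and the 4 EC markers 2.67 to 21.4 CPM. Smooth muscle markers held 16.4 to 165 CPM there and mesothelial markers 0.0361 to 117 CPM. Levels below are CPM of the reads summed over the cells of a class in a mouse, scaled by trimmed-mean (TMM) factors.

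In ASC-like cells, the level per kilobase of exon put Il4ra highest, at a median of 13.6 CPM per kb over 7 mouse ids (range 2.52 to 85.2). Il6 followed at 12.1 (1.89 to 21.1), Il6st at 11.4 (8.10 to 26.1), Il33 at 9.69 (4.19 to 17.4) and Osmr at 6.83 (4.38 to 20.7). Il6ra had 3.28 (2.35 to 4.50), Lif 2.61 (0.975 to 4.59), Lifr 2.49 (1.55 to 3.23) and Il11 0.232 (0.0692 to 0.420). The ranges of neighbours overlapped down this whole order, except that the highest Il11 value lay below the lowest Lifr value. The place of Il4ra rests on the females, where its median was 39.9 CPM per kb. In males it was 2.93, below Il6st (15.5), Il33 (14.4), Il6 (12.1), Osmr (5.25) and Il6ra (3.74). The plot of levels by cell class gives each sum.

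**Figure D1:**
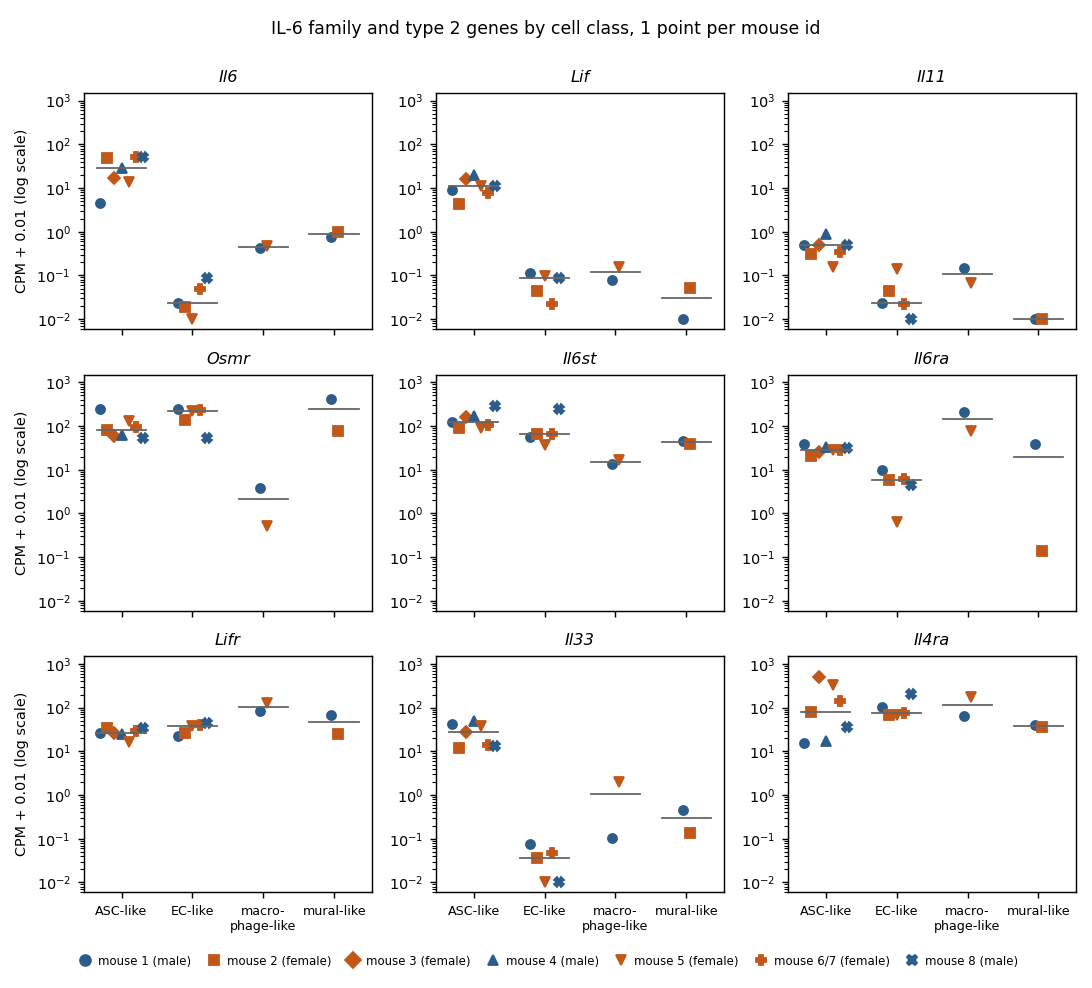
Level of each gene (CPM + 0.01, log scale) in sums over ASC-like, EC-like, macrophage-like and mural-like cells, with 1 point per mouse id (orange female, blue male; sums of at least 10 cells) and a grey line at the median. Il6, Lif and Il33 sit at 4.24 CPM or more in every ASC-like sum and below 0.11 CPM in every EC-like sum, while Osmr, Il6st, Lifr and Il4ra are above 20 CPM in every EC-like sum.

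The ligand Il6 was read mostly in ASC-like cells, and unequally between mice. The gene lies on chromosome 5 (30013114 to 30019981, + strand, GRCm38, which is mm10). Males had 4.60 CPM (mouse 1), 29.5 (mouse 4) and 51.2 (mouse 8), and females had 49.2 (mouse 2), 17.4 (mouse 3), 13.6 (mouse 5) and 51.0 (mouse 6/7). The lowest value was from a male, the highest male and female values were close, and the sexes overlapped. Over library totals alone the highest values were from females 2 and 6/7, and the sexes still overlapped. EC-like sums held 7 Il6 reads in all, 0 to 3 per mouse, against 58057 in the ASC-like sums of the same 5 mice. Per read in genes, the ASC-like sums were 2589 times higher, with an exact 95% Poisson interval of 1256 to 6439 that covers counting error only. The edgeR quasi-likelihood fit with mouse as a block called Il6 lower in EC-like cells (adjusted p = 8.48e-05). In the ASC-like cells of all mice, 5% of the cells carried 67.6% of the summed Il6 CPM, and 10.2% of the cells were above 100 CPM. The level was uneven over cells in every mouse, the top 5% holding from 52.9% to 98.3% of it, while 29.1% of ASC-like cells had a read after thinning to 150000 reads (4.10% to 37.8% by mouse).

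Lif, on chromosome 11 (4257557 to 4272514, + strand), was also read mostly in ASC-like cells. Its levels there were 9.11, 19.95 and 11.4 CPM in males 1, 4 and 8. Females 2, 3, 5 and 6/7 had 4.24, 15.9, 11.4 and 7.54 CPM. The sexes overlapped. EC-like sums held 20 Lif reads against 8308 in ASC-like sums of the same mice, a ratio of 130 (Poisson interval 84.0 to 212), and edgeR called the difference (adjusted p = 0.000375). Il6 and Lif did not mark the same cells. After thinning each cell to 150000 reads, Lif was read in 14.4% of the 654 ASC-like cells with an Il6 read and in 16.7% of the others, and it was the more frequent in Il6-positive cells in 3 of 7 mice.

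The stretches upstream of Il6 and Lif are shown because these IL-6 family ligands were called lower than in ASC-like cells in both EC-like and macrophage-like cells. They are the 250 bases before each RefSeq start site (GRCm38.p6, + strand, chr5:30012864-30013113 and chr11:4257318-4257567), and capitals mark the motifs found.
Il6: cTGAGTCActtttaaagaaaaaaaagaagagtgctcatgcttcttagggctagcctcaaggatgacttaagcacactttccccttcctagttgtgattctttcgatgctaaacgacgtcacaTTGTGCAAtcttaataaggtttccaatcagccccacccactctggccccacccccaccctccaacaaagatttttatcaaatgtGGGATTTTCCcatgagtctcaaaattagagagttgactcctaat
Lif: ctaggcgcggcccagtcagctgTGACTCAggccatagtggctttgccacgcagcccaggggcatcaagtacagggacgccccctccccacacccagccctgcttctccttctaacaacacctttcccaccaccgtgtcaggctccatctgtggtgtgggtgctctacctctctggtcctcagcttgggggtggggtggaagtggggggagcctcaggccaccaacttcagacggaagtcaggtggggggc
Windows of 300 bases, 250 before to 50 after the start, were searched on both strands for AP-1 (TGANTCA), CRE (TGACGTCA), NF-kB, C/EBP (TTGCNNAA), STAT (TTCNNNGAA) and an androgen and progesterone response element. The Il6 window held AP-1, C/EBP and NF-kB letters, beginning at -249, -128 and -44 from the start site, none of them overlapping. The Lif window held AP-1 letters at -228. Of 32851 windows of this length, 7.81% held AP-1, 10.8% C/EBP, 1.63% NF-kB, 8.30% STAT, 1.79% CRE and 0.475% the steroid element. All 9 genes had an entry, in 12 windows. Osmr and the second Il11 window also held AP-1 letters, the second Il33 window C/EBP letters and Il4ra NF-kB letters, and the windows of Il6st, Il6ra and Lifr held none of the 6 motifs. A match is a run of letters and not a site shown to be bound.

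Il6 varied with immediate early genes from cell to cell. Across ASC-like cells within each mouse, the genes whose log2(CPM + 1) was most correlated with that of Il6 were Mt1, a metallothionein (mean r = 0.27 over 7 mice, range 0.14 to 0.40), Zfp36, which encodes an mRNA-decay protein (0.27, 0.06 to 0.37), and Junb, an AP-1 subunit (0.26, 0.17 to 0.36). The cells share plates and differ in depth, and r is given as a description. The median summed level of 13 immediate early and stress genes was higher in Il6-positive than in Il6-negative ASC-like cells in each of the 7 mice. In mouse 1 it was 8826 CPM in the 10 positive cells and 3737 CPM in the 234 negative cells, and in mouse 2 it was 23300 CPM in 282 and 19670 CPM in 465 cells. For Lif, the positive cells were higher in 2 of 7 mice, mice 5 and 8. Over whole ASC-like sums, the same 13 genes held 9210 CPM in mouse 1 and 8494 in mouse 5, the mice with the least Il6, and 12790 to 22580 CPM in the other mice. The part of these genes in the Il6 level was not tested.

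**Figure D2:**
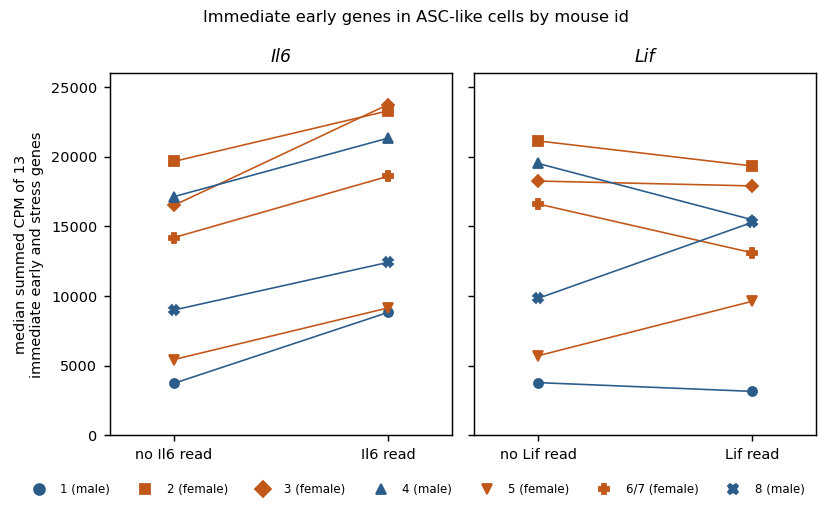
Median summed CPM of 13 immediate early and stress genes in ASC-like cells without (left) and with (right) a read of Il6 or of Lif after thinning to 150000 reads, with 1 line per mouse id (orange female, blue male). All 7 lines rise for Il6, whereas 2 rise and 5 fall for Lif.

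Il11, on chromosome 7 (4772373 to 4782859, - strand), was close to its detection limit. It had 966 reads in all cells, of which 798 were in ASC-like cells at 0.144 to 0.874 CPM per mouse. After thinning, 40 of 2250 ASC-like cells had a read (1.78%, exact 95% interval 1.27 to 2.41). In EC-like cells the share was 1.08% (0.397 to 2.33), so the intervals of the shares overlapped. The reads did differ. EC-like sums held 13 Il11 reads against 444 in ASC-like sums of the same mice. Per read in genes this was a ratio of 10.66 (Poisson interval 6.234 to 20.02, counting error only). In mouse 5 the levels were close, at 0.144 CPM in ASC-like and 0.1277 CPM in EC-like cells. Without thinning, 1.02% of ASC-like and 0% of EC-like cells had at least 10 reads. Il11 passed the filter on low counts in none of the 8 comparisons and has no test.

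In ASC-like cells the gene of the shared chain gp130 was read in more cells than any other member. Il6st, on chromosome 13 (112464070 to 112510086, + strand), had a read in 89.0% of ASC-like cells after thinning (exact interval 87.7 to 90.3). It was read in 40.1% of EC-like, 34.3% of macrophage-like and 44.6% of mural-like cells. In ASC-like sums it stood at 127, 172 and 289 CPM in males 1, 4 and 8. Females 2, 3, 5 and 6/7 had 92.5, 162, 89.9 and 107 CPM. Mouse 8 was the highest for Il6st in EC-like sums too, at 239 CPM against 37.4 to 66.6 in the other 4. EC-like cells were 0.71 lower on the log2 scale (SE 0.23, adjusted p = 0.055 by edgeR), which missed the threshold.

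**Figure D3:**
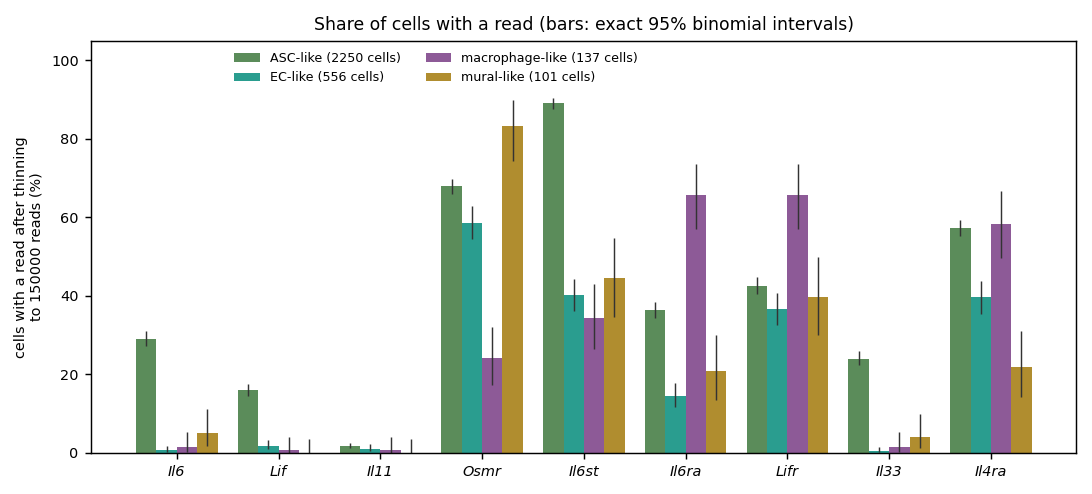
Percentage of ASC-like, EC-like, macrophage-like and mural-like cells with at least 1 read of each gene after each cell was thinned to 150000 reads, with exact 95% binomial intervals as error bars. The intervals pool the cells of all mice and do not cover the spread between mice. Il6st reaches 89.0% of ASC-like cells, Osmr 83.2% of mural-like cells and Il6ra and Lifr 65.7% of macrophage-like cells each. Il6, Lif and Il33 stay at or below 4.95% in the EC-like, macrophage-like and mural-like cells.

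The ligand-binding chain Il6ra was highest in macrophage-like cells. On chromosome 3 (89864059 to 89913196, - strand), it had 214 CPM in mouse 1 and 78.5 CPM in mouse 5 there. The ASC-like sums of these mice had 38.9 and 28.2 CPM, and no ASC-like sum of any mouse was above 38.9. edgeR called Il6ra higher in macrophage-like cells (log2 1.98, SE 0.43, adjusted p = 0.0189). EC-like cells were at 9.72, 5.92, 0.639, 6.19 and 4.51 CPM in mice 1, 2, 5, 6/7 and 8, below every ASC-like sum. The difference was called (log2 -2.64, SE 0.58, adjusted p = 0.0126). The 2 mural-like sums, which differed in smooth muscle-like content, were far apart, at 38.2 CPM in mouse 1 and 0.126 CPM (3 reads) in mouse 2.

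Lifr, the LIF receptor chain, was also highest in macrophage-like cells. It lies on chromosome 15 (7090614 to 7197489, + strand), 82.8 and 125 CPM being read in the macrophage-like sums of mice 1 and 5 against 26.8 and 16.7 CPM in their ASC-like sums. The difference was called (log2 2.27, SE 0.50, adjusted p = 0.0192). EC-like sums, at 22.0 to 44.8 CPM, overlapped the ASC-like range of 16.7 to 34.8 CPM (log2 0.32, SE 0.31, adjusted p = 0.501).

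Osmr, the oncostatin M receptor chain, was read in stromal and vascular cells and hardly in macrophage-like cells. On chromosome 15 (6813577 to 6874969, - strand), it had 251, 63.6 and 53.0 CPM in the ASC-like sums of males 1, 4 and 8, and 82.8, 58.5, 127 and 94.95 CPM in those of females 2, 3, 5 and 6/7. EC-like sums had 243, 135, 226, 235 and 53.3 CPM in mice 1, 2, 5, 6/7 and 8, overlapping the ASC-like values (log2 0.63, SE 0.25, adjusted p = 0.106). Mural-like sums, which differed in smooth muscle-like content, had 411 CPM in mouse 1 and 77.1 CPM in mouse 2. The few lymphatic EC-like cells had 550, 527, 158 and 230 CPM in mice 1, 5, 6/7 and 8. Macrophage-like sums had 3.86 and 0.502 CPM. After thinning, 24.1% of macrophage-like cells had a read, while without thinning 0% had at least 10 reads. edgeR called Osmr lower in macrophage-like than in ASC-like cells (log2 -6.92, SE 0.68, adjusted p = 0.000796). Its ligand showed the opposite order: Osm had 40.8 to 54.9 CPM in the macrophage-like sums, at most 0.0288 CPM in any ASC-like sum and at most 0.256 CPM in any EC-like sum, and was called higher in macrophage-like than in ASC-like cells (adjusted p = 0.000451). Of its 3592 reads in the macrophage-like class, 53.8% lay in the 9 cells led by mast cell markers, and without these cells it was still called (adjusted p = 0.0017).

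Il33, on chromosome 19 (29925114 to 29960718, + strand), was read in ASC-like cells and nearly absent from blood EC-like cells. ASC-like sums had 41.5, 50.3 and 13.6 CPM in males 1, 4 and 8 and 12.1, 28.0, 37.8 and 13.8 CPM in females 2, 3, 5 and 6/7. The sexes overlapped. EC-like sums held 14 reads in all against 22594 in ASC-like sums of the same mice, a ratio of 504 (Poisson interval 300 to 921), and the difference was called (adjusted p = 0.000115). Il33 was read in 0.540% of EC-like cells (0.111 to 1.57) and 24.0% of ASC-like cells (22.3 to 25.8). By mouse, the ASC-like share ran from 15.0% in mouse 6/7 to 55.4% in mouse 4. Lymphatic EC-like cells were few and uneven. The 4 cells of mouse 5 held 297 reads, the 9 of mouse 1 held 57, and the 3 of mouse 6/7 and the 6 of mouse 8 held 0. The ST2 gene Il1rl1 had 8.13 to 81.7 CPM in macrophage-like sums and at most 1.13 CPM in ASC-like sums, and 86.0% of its reads in the macrophage-like class lay in the 9 cells led by mast cell markers.

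In macrophage-like cells the ligands were low. Il6 had 0.424 CPM in mouse 1 and 0.473 CPM in mouse 5 there (34 reads in all), against 4.60 and 13.6 CPM in their ASC-like cells, and was called lower (log2 -4.13, SE 0.99, adjusted p = 0.0267). Lif had 3 and 5 reads and Il11 6 and 2 reads in these sums, and Lif was called lower (log2 -6.58, SE 1.06, adjusted p = 0.00585). Il33 had 4 reads in mouse 1 and 68 in mouse 5, of which 67 were in 1 cell, and was called lower (log2 -6.09, SE 1.24, adjusted p = 0.0145). Of the receptors, Il6st was at 13.7 and 16.7 CPM, below every ASC-like sum (log2 -2.81, SE 0.45, adjusted p = 0.00552). Il4ra was at 63.1 and 172 CPM, against 15.1 and 339 CPM in the ASC-like sums of mice 1 and 5. It was thus higher in mouse 1 and lower in mouse 5 (log2 0.55, SE 0.78, edgeR adjusted p = 0.667).

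In mural-like cells the ligands were low, and the receptors fell on both sides of the ASC-like range. Il6 had 0.755 CPM in mouse 1 and 1.00 CPM in mouse 2, Lif 0 and 1 read, and Il11 0 reads in both, which allows a level of up to 3 reads over both sums. Il6st had 45.9 and 39.2 CPM, below every ASC-like sum, Lifr 67.9 and 25.5 CPM, and Il4ra 39.4 and 36.2 CPM. Smooth muscle-like cells were in the sum of mouse 1 and not in that of mouse 2. In EC-like cells Il11 had 13 reads in 5 mice and the difference of Il4ra from ASC-like cells was smaller than its error (log2 0.40, SE 0.88, adjusted p = 0.78).

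Counted over the members, EC-like cells differed from ASC-like cells in 4 of 8 tested genes, all lower: Il6, Lif, Il6ra and Il33. In that comparison 22.7% of the 12215 genes tested were called (adjusted p under 0.05 and over 2.6-fold). Macrophage-like cells differed in 7 of 8, with Il6, Lif, Osmr, Il6st and Il33 lower and Il6ra and Lifr higher, against 25.2% of 8036 genes. Without the 9 cells led by mast cell markers, an alternative chosen after seeing the data, the same 7 were called (Il6ra log2 2.05, Lifr 2.37, Osmr -7.00). The comparison rests on 2 mice, and the call of Il6ra and of Lifr is lost without the filter on low counts (adjusted p = 0.0695 and 0.0699), and that of Il6, Il33, Il6ra and Lifr with a filter of 10 counts. In mural-like cells no member was called, nor was any gene of the 9701 tested (0%), where 1373 had an unadjusted p under 0.05 in edgeR and DESeq2 called 1387. Il33 had 0.440 CPM in mouse 1 and 0.126 CPM in mouse 2 there, a log2 difference of -6.46 (SE 0.80, adjusted p = 0.09). DESeq2 and the likelihood ratio test of edgeR each called Il6, Lif and Il33 lower in mural-like cells.

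Some other genes of the pathway, in fixed lists, also differed between classes. Over all genes tested, 22.7% were called in EC-like and 25.2% in macrophage-like cells. Among the other IL-6 family ligands, 6 of 7 were in the table. In EC-like cells Clcf1 was called lower, the 1 tested. In macrophage-like cells both tested ligands, Osm and Ebi3, were called higher. Both were near 0 in ASC-like sums and passed the filter on low counts only through the macrophage-like sums. Ebi3, a subunit of IL-27 and IL-35, had 18.9 to 21.5 CPM in macrophage-like sums and at most 0.0432 CPM in ASC-like sums. Of the other receptor chains, Il11ra1, the binding chain for IL-11, had 118 to 329 CPM in ASC-like sums against 7.35 to 63.9 in EC-like sums and 24.8 to 26.9 in macrophage-like sums, and was called lower in both. Cntfr, which encodes the binding chain for ciliary neurotrophic factor, had 2.04 to 10.4 CPM in ASC-like sums and at most 0.0800 CPM in EC-like sums, where it was called lower (adjusted p = 0.000697). Il2rg, the common gamma chain that pairs with IL-4 receptor alpha in blood cells, was called higher in EC-like and in macrophage-like cells, at 60.2 to 121 and 77.1 to 175 CPM against at most 0.807 CPM in ASC-like cells. Crlf2, a chain of the thymic stromal lymphopoietin receptor, was called higher in macrophage-like cells (log2 2.79, SE 0.48). Of 3 measured type 2 cytokines 1 was tested against EC-like cells and not called, and none was tested against macrophage-like cells. Il4 had at most 0.144 CPM in any ASC-like sum and 1.66 to 3.41 CPM in macrophage-like sums, where 69.2% of its 201 reads lay in the 9 cells led by mast cell markers.

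Genes downstream of the receptors moved in both directions. Of 10 JAK and STAT genes, 2 were called higher in macrophage-like cells (Jak3 and Tyk2, log2 6.27 and 2.74) and none lower. In that comparison 25.2% of all genes tested were called, so the count is not above the share over all genes. Jak3 was also called higher in EC-like cells (log2 6.64). In EC-like cells, where 22.7% of all genes tested were called, 5 of 10 feedback and STAT3 target genes were called lower and 1 higher. They included Timp1, a metalloprotease inhibitor (log2 -11.51, SE 0.80), Ccl2, a monocyte chemokine (-6.05, SE 1.23), and the transcription factors Cebpb (-3.11, SE 0.57) and Cebpd (-2.88, SE 0.59). Over the list the median was -1.53, beside -0.20 over all genes tested. In macrophage-like cells 2 of 8 tested were called lower, Timp1 (-6.60) and Socs2 (-2.29, and -4.64 without the cells led by mast cell markers), and Ccl2 was called higher (3.26). Of the STAT6 targets of macrophages, 6 of 6 tested were called higher in macrophage-like cells, led by Retnla, Mrc1, Ccl24 and Clec10a, with a list median of 11.44 beside -0.02 over all genes. Most of these genes are also markers of fat macrophages. Retnla, Mrc1, Ccl24 and Clec10a were near 0 in ASC-like sums and passed the filter on low counts only through the macrophage-like sums. Arg1, which was low in both classes, did not pass the filter and was not tested. The count of 6 of 6 was thus set in part by the filter. In EC-like cells 1 of 2 tested was called, Irf4, which was lower (log2 -6.62, SE 1.46). No gene of any list was called in mural-like cells. Of the 13 immediate early and stress genes, 3 were called higher in macrophage-like cells (Ier3, Zfp36 and Atf3), beside 25.2% of all genes tested, and none was called in EC-like cells, beside 22.7%.

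Within the ASC-like cells, Lifr, Osmr and Il33 separated the subtypes. The 2252 cells were divided by fixed markers into ASC1a (830 cells, led by Col15a1), ASC1b (660, led by Fmo2 and F3) and ASC2 (762, led by Dpp4 and Pi16), and 345 lay near a boundary. Marker scores were scaled within each mouse, and each cell took the subtype of its highest score. The labels are thus relative to the other ASC-like cells of a mouse. Every mouse was divided among the labels, with 88, 71 and 85 cells in mouse 1 and 128, 114 and 121 in mouse 4. In the study's own clustering, the male ASC1a cluster held no cell of mouse 1, and the male ASC2 cluster hardly any of mouse 4. Whether the ASC1a label in mouse 1 and the ASC2 label in mouse 4 match those subtypes was not tested. Lifr had 58.4, 55.7, 42.3, 43.4, 31.0, 60.8 and 53.4 CPM in the ASC1a cells of mice 1, 2, 3, 4, 5, 6/7 and 8. In ASC1b it had 14.8, 32.8, 31.8, 16.1, 12.6, 16.0 and 27.1 CPM, and in ASC2 8.74, 15.1, 7.12, 12.0, 6.34, 10.3 and 17.7 CPM, in the same order. The level fell from ASC1a over ASC1b to ASC2 in each of the 7 mice, and the ASC1a and ASC2 values did not overlap. In the fit with mouse as a block, ASC2 was called lower than ASC1a (log2 -2.21, SE 0.21, adjusted p = 1.74e-06). The steps between ASC1a and ASC1b (log2 -1.25, SE 0.20, adjusted p = 0.00333) and between ASC1b and ASC2 (-0.97, SE 0.20, adjusted p = 0.0053) passed the adjusted p but not the fold limit of 2.6.

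Osmr took the same order in each of the 7 mice. It ran from 74.2 to 397 CPM in ASC1a, from 48.2 to 211 in ASC1b and from 19.9 to 168 in ASC2, with mouse 1 the highest in all. ASC2 was 1.33 lower than ASC1a (log2, SE 0.16, adjusted p = 2.57e-05), a 2.51-fold difference just under the fold limit, so that it was not called. Without the cells near a boundary it was called (log2 -1.46).

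Il33 was lowest in ASC1a. It had 23.2, 2.22, 5.28, 20.2, 10.2, 0.462 and 3.83 CPM in the ASC1a cells of mice 1, 2, 3, 4, 5, 6/7 and 8. In ASC1b it had 85.1, 20.7, 18.5, 73.2, 72.6, 30.4 and 35.2 CPM, and in ASC2 27.3, 15.8, 55.0, 50.7, 40.5, 11.9 and 10.3 CPM. Both were above ASC1a in every mouse, although the ranges over mice overlapped. ASC1b was called higher than ASC1a (log2 2.85, SE 0.46, adjusted p = 0.00296), and so was ASC2 (2.15, SE 0.45, adjusted p = 0.00433). Between ASC2 and ASC1b the difference was -0.71 (SE 0.43, adjusted p = 0.425). Without the mouse block neither Il33 call holds (adjusted p = 0.354 and 0.219).

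Il6, Lif, Il6st and Il6ra were called in none of the 3 subtype comparisons. Il6 was higher in ASC1b than in ASC1a in 4 of 7 mice (log2 -0.25, SE 0.43), and its share of cells was 29.9% in ASC1a, 32.3% in ASC1b and 25.3% in ASC2. Il4ra was 0.77 higher in ASC2 than in ASC1b (SE 0.22, adjusted p = 0.0401), under the fold limit. The females had 138, 746, 415 and 213 CPM in ASC2 and 55.2, 349, 192 and 76.6 in ASC1b (mice 2, 3, 5 and 6/7). The males had 18.3, 15.7 and 24.6 CPM in ASC2 and 14.9, 16.0 and 29.7 in ASC1b (mice 1, 4 and 8). ASC2 was the higher in 4 of 4 females and in 1 of 3 males, and whether the sexes differ in this was not tested. Over the members, 1 of 8 was called for ASC1b against ASC1a (0.511% of 11155 genes), 2 of 8 for ASC2 against ASC1a (3.46%) and 0 of 8 for ASC2 against ASC1b (2.82%).

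**Figure D4:**
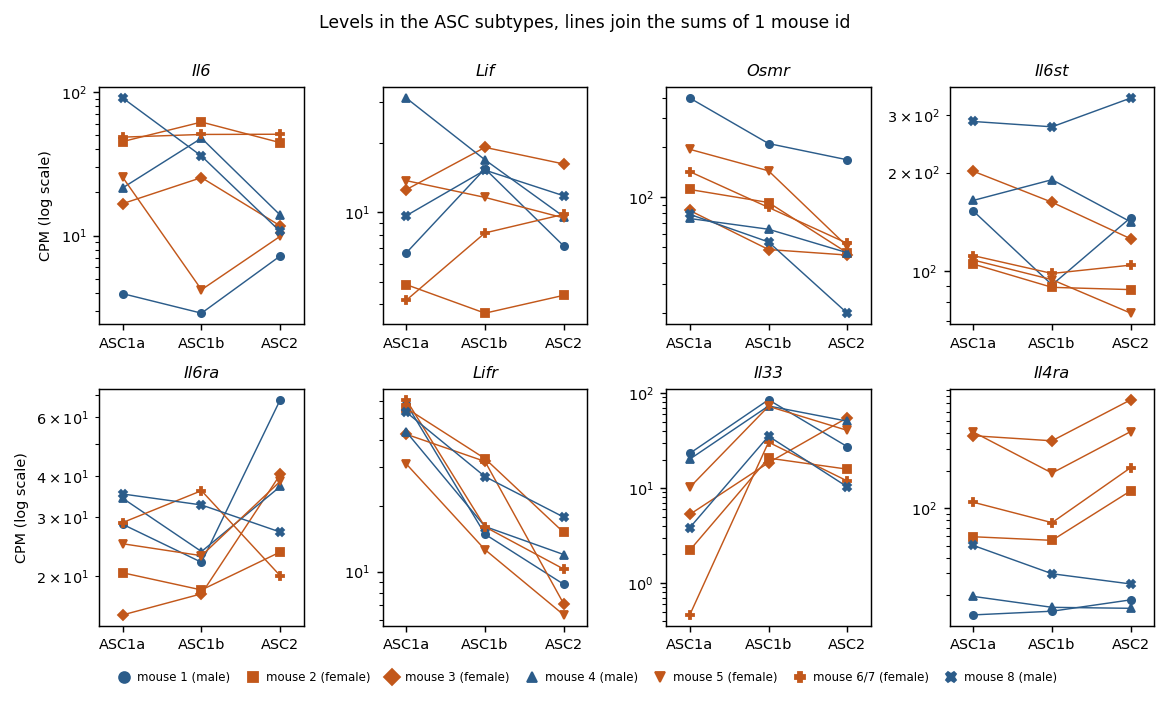
Level of 8 of the genes (CPM, log scale) in the ASC1a, ASC1b and ASC2 cells of each mouse id, with lines joining the sums of 1 mouse (orange female, blue male). Lifr and Osmr fall at each step in all 7 mice, and Il33 is higher in ASC1b and ASC2 than in ASC1a in all 7.

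From the other lists, Cntfr was called lower in ASC2 than in ASC1a (log2 -3.21, SE 0.71) and than in ASC1b (-2.98, SE 0.68). Il13ra1, which with IL-4 receptor alpha forms the receptor for IL-13, was called higher in ASC2 (2.21, SE 0.40, and 1.94, SE 0.40), and so was Irf4, a transcription factor on the STAT6 target list (5.10, SE 0.94, and 3.68, SE 0.87). Of the feedback and STAT3 target genes, Timp1 was called higher in ASC1b than in ASC1a (1.64, SE 0.34) and Ccl2 higher in ASC2 than in ASC1a (1.89, SE 0.46). No immediate early gene passed the fold limit between subtypes. In ASC2 against ASC1a, some passed the adjusted p alone and were lower, at 1.57-fold to 2.58-fold. Among them were Fosb (log2 -1.37, SE 0.24), Zfp36 (-1.24, SE 0.18) and Jun (-1.12, SE 0.12). Some also did so in ASC2 against ASC1b. The share of all genes that passed the adjusted p alone was not counted. The list medians were -0.65 and -0.60, beside -0.01 and 0.01 over all genes. Their part in the Il6 values by subtype was not tested.

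Some of the genes most like Lifr and Osmr across ASC-like cells were shared. For Lifr they were Steap4 (mean r = 0.31), Ccl11 (0.30) and Gsn (0.28), for Osmr Steap4 (0.30), Gsn (0.26) and C4b (0.25), and for Il33 Pi16 (0.28), Fmo2 (0.26) and Tspan11 (0.25). Pi16 and Fmo2 are among the markers that defined ASC2 and ASC1b. Il4ra was nearest to Cd248 (0.23), Tgfbr2 (0.21) and Axl (0.21), but with r below 0 in at least 1 mouse for each. Il6ra was nearest to Adgrd1 (0.18), Anxa3 (0.15) and Cd248 (0.15). For Lif (Helq, Bicd2 and Kmt2d), Il6st (Cyp1b1, C1s1 and Arcn1) and Il11 (Gm7240, Gm10563 and Acad10) no gene reached 0.16. Detection of Osmr and of Lifr was associated: Lifr had a read in 48.6% of the 1528 Osmr-positive ASC-like cells and in 29.9% of the others, in the same direction in each of the 7 mice. Cells were thinned to 150000 reads for that count, and it was not split by subtype.

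The DPP4 sort of mouse 2 gave a second view of the subtypes, with 1 plate on each side and no replicate. Dpp4 itself had 195 CPM in 379 ASC-like cells on the plate sorted as DPP4-positive and 1.57 CPM in 368 on the DPP4-negative plate. Lifr was read in 36.4% (exact interval 31.6 to 41.5) of DPP4-positive and 65.5% (60.4 to 70.3) of DPP4-negative ASC-like cells, and Osmr in 58.1% (52.9 to 63.1) and 82.1% (77.8 to 85.9). Il4ra went the other way, with 77.8% (73.3 to 81.9) and 57.1% (51.8 to 62.2), and with 155 against 67.2 CPM. Il6 was read in 31.9% (27.3 to 36.9) and 43.8% (38.6 to 49.0). These intervals do not overlap and cover counting error over cells of 1 mouse only. The intervals of Lif, Il11, Il6st, Il6ra and Il33 overlapped between the plates.

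Il4ra was the member that differed between the sexes. It lies on chromosome 7 (125552120 to 125579474, + strand). In ASC-like cells the males had 15.1, 17.6 and 36.1 CPM (mice 1, 4 and 8), and the females had 81.6, 512, 339 and 140 CPM (mice 2, 3, 5 and 6/7). No male reached the lowest female, and the females spanned a wider range than the gap between the sexes. Mean levels were 268 ± 196 CPM (SD, n = 4) in females and 22.9 ± 11.5 CPM (SD, n = 3) in males. Il4ra was lower in males by 3.56 on the log2 scale (SE 0.67, edgeR quasi-likelihood adjusted p = 0.0256). It was read in 12.7%, 25.6% and 19.3% of the thinned ASC-like cells of males 1, 4 and 8 and in 67.6%, 93.9%, 96.2% and 71.1% of those of females 2, 3, 5 and 6/7. The call is lost when mouse 1, 4, 5 or 8 is left out (adjusted p = 0.0588, 0.085, 0.0647 and 0.0564) and with a filter of 10 counts or none (0.0648 for both), at log2 values of -3.35 to -4.03. On plates 172, 129, 131, 843 and 42 alone, sorted for PDGFRB and not on DPP4, it holds (log2 -4.36, adjusted p = 0.0191). That choice leaves out mouse 2, the lowest female, and mouse 8, the highest male, so it is not a check of the gate alone. The study lists Il4ra among its female-higher genes, a list drawn from these cells together with separate bulk libraries that were not used here, so its direction here is not independent evidence.

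None of the other 7 tested members was called between the sexes in ASC-like cells, and 2.21% of 11829 genes were. Il6ra was higher in the males, at 38.9, 32.3 and 31.1 CPM against 20.3, 25.5, 28.2 and 28.4 CPM, without overlap, but its log2 difference of 0.40 (SE 0.24) had an adjusted p of 0.377 and turned to -0.24 with library totals in place of TMM factors. That scaling moved the median of all genes from 0.04 to -0.60. Il6st was 0.78 higher in males (SE 0.34, adjusted p = 0.245), and Il6, Lif, Osmr, Lifr and Il33 differed by -0.23 to 0.59 (adjusted p from 0.537 to 0.899). From the lists, Cntfr was called higher in males (1.68, SE 0.35) and Ccl8, a chemokine on the STAT6 target list, lower (-3.01, SE 0.54).

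In EC-like cells Il4ra ran the other way. The males had 103 and 210 CPM (mice 1 and 8). The females had 69.6, 68.7 and 76.3 CPM (mice 2, 5 and 6/7), without overlap on the TMM scale. Over library totals alone, male mouse 1 lay among the females. That scaling moved the median of all genes from 0.002 to -0.79. With TMM factors the log2 difference of Il4ra was 1.29 (SE 0.47, edgeR adjusted p = 0.644). In that comparison 0.0493% of 8113 genes were called. None of the 5 tested members (Osmr, Il6st, Il6ra, Lifr and Il4ra) was called. Without mouse 1, which leaves mouse 8 as the only male and assumes that it varies like the females, Il4ra (1.75, adjusted p = 0.0366) and Il6st (2.29, adjusted p = 0.0355) were called.

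**Figure D5:**
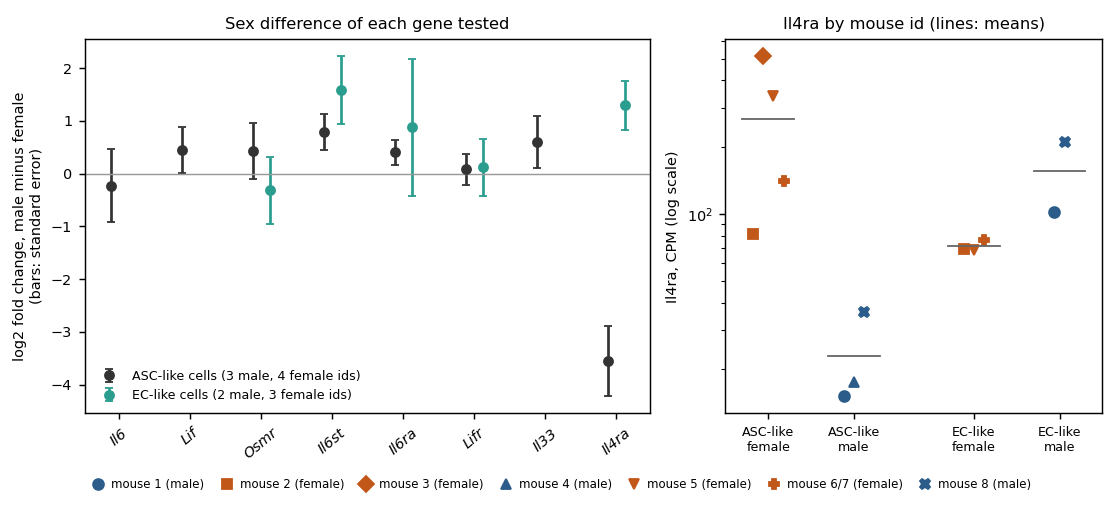
Left, log2 fold change of male minus female with its standard error for each tested gene in ASC-like cells (3 male and 4 female mouse ids) and EC-like cells (2 male and 3 female ids). Right, Il4ra level (TMM-scaled CPM, log scale) by mouse id with grey lines at the means. Males are below all females in ASC-like cells (at most 36.1 against at least 81.6). In EC-like cells they are above them (at least 103 against at most 76.3), which does not hold for mouse 1 over library totals alone.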

How the data were processed

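Single cells of the pgWAT stromal vascular fraction were sequenced with Smart-seq2 on 11 plates. The authors aligned reads with STAR to mm10 and quantified genes with Salmon. The deposited values are raw counts in whole numbers, for each gene in each cell, with no normalization and no molecular identifiers. Strand was not kept, so reads of Il6ra and Il4ra cannot be told apart from those of their antisense genes Gm42809 and Gm44876 (1635 and 806 reads against 64421 and 286487). The STAR and Salmon versions used for these libraries are not given in the sources used here. 0 columns lacked a labelled plate, and the authors had filtered the cells before deposit.

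Spike-in rows were left out. Cells were clustered with Seurat 5.3.0 (2979 variable genes after 21 listed genes were held out, 14 components) and named by fixed markers. No doublet caller was run; cells with high markers of another class were left out as an alternative. Counts were summed per mouse id and class (at least 10 cells) and tested with edgeR 4.0.16 (TMM, genes above 600 counts in at least 2 sums, quasi-likelihood F test, Benjamini-Hochberg adjusted over all genes tested). Class and subtype comparisons had mouse as a block, since both sums come from the same animal, and p-values measure the spread between mouse ids. Calls needed an adjusted p under 0.05 and a change over 2.6-fold, and DESeq2 1.42.0 was an alternative. A gene near 0 in 1 class of a comparison passed the count filter only through the other class. Sums held 14765132 to 594421842 reads. Shares were taken after thinning each cell to 150000 reads, which left out 2 ASC-like and 3 EC-like cells that were shallower, with exact binomial (Clopper-Pearson) intervals. Intervals and floors cover counting error only. The members and lists were chosen with earlier results of these data known. All 9 members are named, and from each list up to 4 called genes with the largest log2 change. For likeness, the 3 genes with the highest mean within-mouse Pearson r were taken among the 12782 genes read in at least 10% of ASC-like cells. The count of called JAK and STAT genes in EC-like cells is not reported here.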

Additional observations from a re-analysis of the deposited data

Results flagged for a closer look

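The sex difference of Il4ra had opposite signs in ASC-like and EC-like cells. The male effect was 3.87 higher on the log2 scale in EC-like than in ASC-like cells (SE 0.65), by a sex and class interaction term in edgeR with mouse as a block, chosen after seeing the data. Its unadjusted p was 0.000862 and its adjusted p 0.536, so it failed the correction, as did every one of 12215 genes (0 called, 768 with an unadjusted p under 0.05). In ASC-like cells 3 of 3 males were below all 4 females, and in EC-like cells 2 of 2 males were above all 3 females. These orders are on the TMM scale, and over library totals alone the EC-like sum of male mouse 1 lay among the females.

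Mouse 3 stood apart from the other 3 female ids in 3 of 36 groups tested by Dixon's criterion, which chance alone would flag in about 1 group in 20. Its Il6st level was 202 CPM in ASC1a cells (others 104.9 to 111) and 162 CPM in ASC1b cells (others 89.0 to 98.1). Its Il11 level was 1.29 CPM in ASC1b cells (others 0.0124 to 0.0666).

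The unnamed cells, which entered no comparison, held member reads in a few cells. All 140 Il11 reads of the 6 unnamed cells of mouse 1 were in 1 cell. Of the 992 Il6 reads in the 74 unnamed cells of mouse 6/7, 968 were in 1 cell.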

How the results depend on the processing

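Of 900 member values recomputed under the alternatives, 871 kept their side of the threshold, 17 lost a call and 12 gained a call. No called member changed sign, and every sign change was of a member called under neither setting. The number of members called for sex in ASC-like cells was 0 in place of 1 with a filter of 10 counts and with none, and 0 to 1 without each mouse. For sex in EC-like cells it was 0 to 2 without each mouse. For macrophage-like cells it was 3 in place of 7 with a filter of 10 counts, and 5 without a filter. For mural-like cells it was 3 in place of 0 with the likelihood ratio test and with DESeq2. For ASC1b against ASC1a it was 0 in place of 1 with no replicate block and 1 to 2 without each mouse, and for ASC2 against ASC1a it was 1 in place of 2 with no replicate block and 2 to 3 without each mouse. The cause of these changes was not tested. Leave-one-out could not be fitted for macrophage-like and mural-like cells, nor could mural-like classes from single-cell markers or without mixed cells, because fewer than 2 mice were left.

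Over the whole table, the genes called for sex in ASC-like cells were 261, against 555 (likelihood ratio test), 599 (DESeq2), 172 (no filter), 93 (plates not sorted on DPP4) and 92 to 360 (without each mouse). In EC-like cells they were 4, against 55, 108, 1 (RLE size factors), 0 (a filter of 10 counts or none) and 0 to 667. For mural-like cells they were 0, against 1018, 1387 and 78 (library totals). For ASC1b against ASC1a they were 57, against 133, 161, 7 (no replicate block) and 33 to 61. Without the replicate block they were 181 in place of 386 for ASC2 against ASC1a and 104 in place of 315 for ASC2 against ASC1b.

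Without thinning, the share of ASC-like cells with a read rose to 46.8% for Il6, 26.6% for Lif, 3.06% for Il11, 83.8% for Osmr, 96.3% for Il6st, 52.6% for Il6ra and 60.4% for Lifr. With at least 10 reads required it was 53.2% for Osmr, 78.9% for Il6st, 26.2% for Il6ra, 29.97% for Lifr, 18.3% for Il6, 9.37% for Lif, 1.02% for Il11, 13.5% for Il33 and 46.5% for Il4ra. Between the DPP4 plates, the mean over cells of log2(CPM + 1) differed by -0.30 for Il6st, where the ratio of sums had the opposite sign (0.01), and by 0.021 for Il11 (sums 2.12), -1.70 for Osmr (-0.46) and -1.90 for Lifr (-1.02).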
